A study of Papio anubis and Macaca mulatta with 6 samples.

Results

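Spermatogonia of the PIWIL4 and DIRAS3 state were described in the testes of 2 prepubertal baboons and 2 prepubertal rhesus monkeys, profiled by droplet single-cell RNA sequencing in 6 libraries. A barcode with at least 1000 UMIs (unique molecular identifiers, each counting 1 captured mRNA molecule) was taken as a germ cell when it held a UMI of at least 3 of 12 germ cell genes: DAZL, MAEL, STK31, TDRD1, PIWIL2, TEX15, SMC1B, RHOXF1, MAGEB2, TKTL1, DDX4 and SOHLH1. A germ cell was a member of the state when its summed UMIs of PIWIL4, DIRAS3, CHGB, PGF, AQP5 and CCDC106 exceeded those of NANOS3, L1TD1, RBM24, BIK, GDA and TSTD1. This gave 237 members among 44341 barcodes, with 373 remaining germ cells and 43731 somatic barcodes, which are those with a UMI of fewer than 3 of the 12 germ cell genes. In the baboon 164 of 386 germ cells were members (42.5%), and in the rhesus monkey 73 of 224 (32.6%). Only 11 of the 12 germ cell genes were listed in the rhesus monkey, so the 2 shares do not rest on quite the same criterion.

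All animals were untreated, no genotype or strain was given, and each tissue was whole testis digested to single cells without sorting. Baboon 1 gave the libraries 1A and 1B and rhesus 2 the libraries 2A and 2B, whereas baboon 2 and rhesus 1 gave 1 library each, named 2 and 1. Library 2 of the baboon was made with version 3 of the 3′ chemistry and the other libraries with version 2, so that in the baboon the chemistry and the animal cannot be told apart. Ages of 15 and 20 months for the baboons, and of newborn and 26 months for the rhesus monkeys, stand in the design text, but the methods assign them the other way round and neither source ties an age to an animal, so age was not used. The libraries held 31074298 (1A), 16875294 (1B) and 49803025 (2) UMIs in the baboon, and 38106092 (1), 19675453 (2A) and 18806225 (2B) in the rhesus monkey. With 2 animals per species, p-values rest on those animals only. Where the animal was a block in the fit, they measure how the difference between the groups varied between the 2 animals. The spread was in part shared over genes.

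Before puberty the male germ cells of primates include spermatogonia, and among the undifferentiated ones are the stem cells from which sperm production starts. PIWIL4 is a PIWI protein of the germ line that, loaded with small piRNAs, enters the nucleus and directs DNA methylation to transposons. DNMT3L and SPOCD1 act in that same pathway. DIRAS3 is an imprinted small GTPase of the RAS family, CHGB a granin of secretory granules, PGF a ligand of the VEGF family and AQP5 a water channel. Of the 6 genes set against them, NANOS3 encodes an RNA-binding protein of germ cells, L1TD1 an RNA-binding protein derived from a LINE-1 element and BIK a pro-apoptotic protein.

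The label was first checked against the data, and it did not hold for all members. TEX15, DAZL and RHOXF1, which are among the 12 germ cell genes, were also found in somatic barcodes. TEX15 had a UMI in 10.7% (1A), 11.2% (1B) and 17.4% (2) of the somatic barcodes of the baboon. Without these 3 genes, 131 members held a UMI of at least 3 of the other 9, whereas 106 did not. The latter lay largely in baboon 2, where 87 of 125 members fell under 3 of the 9 genes and 25 held none, against 3 of 27 in library 1A, 2 of 12 in 1B, 14 of 62 in rhesus 1 and 0 in both libraries of rhesus 2. The plot of AMH against germ cell genes shows each member.

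**Figure D1:**
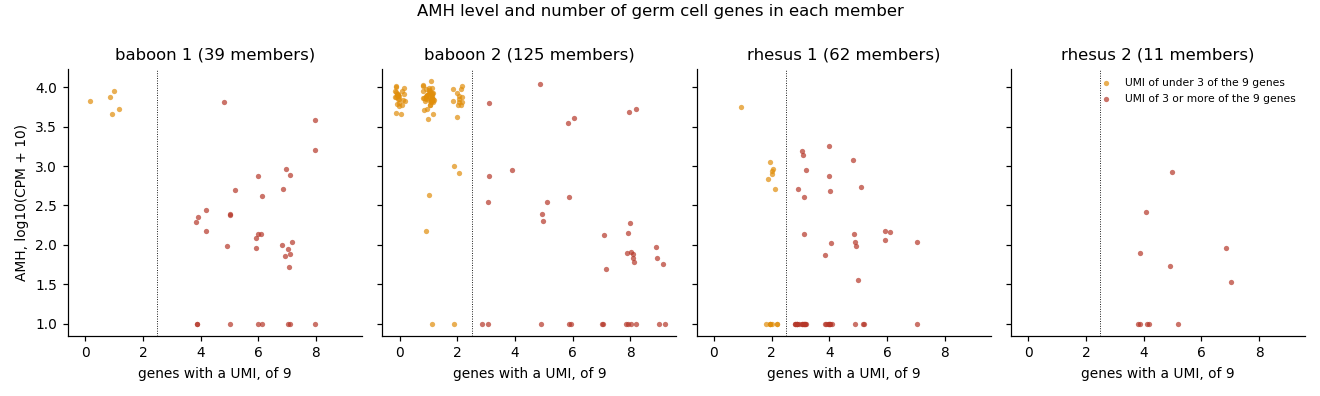
Each point is 1 member; the horizontal axis gives the number of the 9 germ cell genes with a UMI (jittered) and the vertical axis the level of AMH as log10(CPM + 10), where CPM is UMIs per 1000000 UMIs of the cell, in a panel for each animal. In baboon 2 nearly all members left of the dotted line (under 3 genes) lie at the top, with a median AMH level of 7360 CPM, against 67.1 in those right of it.

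AMH, anti-Müllerian hormone, is the hallmark product of immature Sertoli cells. Levels are given in CPM, the UMIs of a gene per 1000000 UMIs of a cell or of a group of cells in a library. The median AMH level over the 87 members of baboon 2 under 3 of the 9 genes was 7360 CPM, above the 3777 of the somatic barcodes of that library. In the 38 members of that library with 3 or more of the 9 genes the median was 67.1. The Sertoli list (SOX9, AMH, WT1, DHH, INHA, INHBB and GATA4 in the baboon, with CLU as an additional member in the rhesus monkey) summed to 8776 CPM in the former, with 7 of 7 genes found and AMH the most abundant, and to 1945 in the latter, also with 7 of 7 found. ID4, a marker of undifferentiated spermatogonia, had a UMI in 19.5% of the former and in 84.2% of the latter. UTF1, another such marker, separated them less by detection, with a UMI in 79.3% of the former, 92.1% of the latter and 16.7% of the somatic barcodes, and stood at 75.3, 483 and 51.8 CPM. TEX15 had one in 96.6% of the former. The members under 3 of the 9 genes had a median of 28187 UMIs, against 15066 in the others and 2863 in the somatic barcodes, and their level of PIWIL4 was 2.26 CPM, whereas that of CCDC106 was 88.1, close to the 70.0 of the somatic barcodes. These values are of baboon 2. In the 14 such members of rhesus 1 the median AMH level was 249 CPM, against 1477 in somatic barcodes. Their Sertoli list summed to 3732 CPM, against 6199 in somatic barcodes and 610 in the other members. EGR4, a zinc finger transcription factor, had a UMI in 35.7% of them and in 0.265% of somatic barcodes. What these cells are was not tested.

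The 131 members with 3 or more of the 9 genes are called core members here, and the 214 remaining germ cells that met the same condition the other core germ cells. This condition was added after values had been seen, and results are given for the core members, with the counts of calls for all members given after the gene lists. Core members made up 24 (1A), 10 (1B) and 38 (2) cells in the baboon, 72 in all, and 48 (1), 7 (2A) and 4 (2B) in the rhesus monkey, 59 in all. Their share of the core germ cells was 40.0% in baboon 1 (exact binomial 95% interval 29.5 to 51.2%), 43.7% in baboon 2 (33.1 to 54.7%), 32.4% in rhesus 1 (25.0 to 40.6%) and 44.0% in rhesus 2 (24.4 to 65.1%). The intervals cover counting error only, and all 4 overlap. No germ cell barcode was shared between libraries, and of all barcodes between 1 and 136 were shared by a pair of libraries. Doublets simulated from the same library marked 1 baboon and 8 rhesus core members, and these were kept. Of the latter, 6 were among the 48 core members of rhesus 1 and 2 among the 4 of library 2B, so that the levels of 2B below rest on few cells of which 2 are marked.

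The 6 state genes chose the members, so their levels are a description and carry no test. They are given per library in CPM, in the order 1A, 1B and 2 (baboon) and 1, 2A and 2B (rhesus monkey). PIWIL4 (Panubis1.0, chromosome 12, 39822294 to 39871782) stood at 216, 250 and 135 in baboon core members, at 29.2, 0 and 22.0 in the other core germ cells and at 0.368, 0 and 0.271 in somatic barcodes. It had a UMI in 57 of the 72 baboon core members. Rhesus PIWIL4 (Mmul_10, chromosome 14, 87787642 to 87837811) stood at 8.93, 12.4 and 17.7 in core members, on only 3, 2 and 1 UMIs, and at 0 in all the other core germ cells, so that the rhesus members were chosen mainly by the other 5 genes. A PIWIL4 UMI was present in 6 of the 59 rhesus core members. The median UMI counts of core members were 11269 (1A), 12177 (1B) and 15066 (2) in the baboon, and 4252 (1), 22573 (2A) and 13485 (2B) in the rhesus monkey, so rhesus 1 was the shallowest whereas rhesus 2 was not.

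DIRAS3 (Panubis1.0, chromosome 1, 66442381 to 66448392; Mmul_10, chromosome 1, 156371159 to 156375838) stood at 35.4, 53.0 and 18.4 CPM in baboon core members and at 32.7, 49.8 and 70.6 in rhesus core members. In the other core germ cells it was at 5.31, 0 and 4.71 in the baboon and 3.67, 0 and 10.6 in the rhesus monkey. It was found in 20 of 72 and 17 of 59 core members, and all 20 of the baboon cells also held PIWIL4, whereas only 3 of the 17 rhesus cells did. The groups did not overlap in either species, which the rule itself fixes in part.

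CHGB (Panubis1.0, chromosome 16, 52590271 to 52604544; Mmul_10, chromosome 10, 60590123 to 60604409) was at 70.8, 37.9 and 104 in baboon core members against 10.6, 15.3 and 9.42 in the other core germ cells, and at 134, 149 and 106 against 3.67, 16.5 and 21.2 in the rhesus monkey. Somatic barcodes of baboon 2 held CHGB at 33.8, above the 10.4 and 9.43 of 1A and 1B. AQP5 (Panubis1.0, chromosome 9, 44794950 to 44798747; Mmul_10, chromosome 11, 49569233 to 49573021) was at 118, 106 and 134 against 34.5, 20.4 and 17.3 in the baboon, and at 83.3, 37.3 and 177 against 5.51, 0 and 0 in the rhesus monkey. In somatic barcodes AQP5, PIWIL4 and DIRAS3 were each at most at 0.970 CPM in any of the 6 libraries.

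PGF (Panubis1.0, chromosome 7, 31716577 to 31730200; Mmul_10, chromosome 7, 137058583 to 137072164) was at 23.6, 30.3 and 43.5 in baboon core members and at 89.3, 31.1 and 283 in rhesus core members. Its somatic levels were 1.56, 3.20 and 3.45 in the baboon but 11.7, 25.0 and 24.7 in the rhesus monkey, close to the rhesus members of 2A. CCDC106 (Panubis1.0, chromosome 20, 10303226 to 10309231; Mmul_10, chromosome 19, 55401609 to 55406918) was at 157, 280 and 115 in baboon core members and at 80.4, 261 and 459 in rhesus core members. In all 6 libraries somatic barcodes held more of it (66.1, 68.8 and 70.0 in baboon libraries, 38.9, 50.0 and 49.4 in rhesus libraries) than the other core germ cells did (29.2, 20.4 and 28.3, and 20.2, 8.23 and 21.2). Barcodes under 100 UMIs, which hold mostly free RNA, carried it at 65.2 to 75.7 CPM in the baboon and at 46.0 to 61.8 in the rhesus monkey. CCDC106 was the only state gene found in 4 baboon and 6 rhesus core members, and in 24 of all 164 baboon members.

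**Figure D2:**
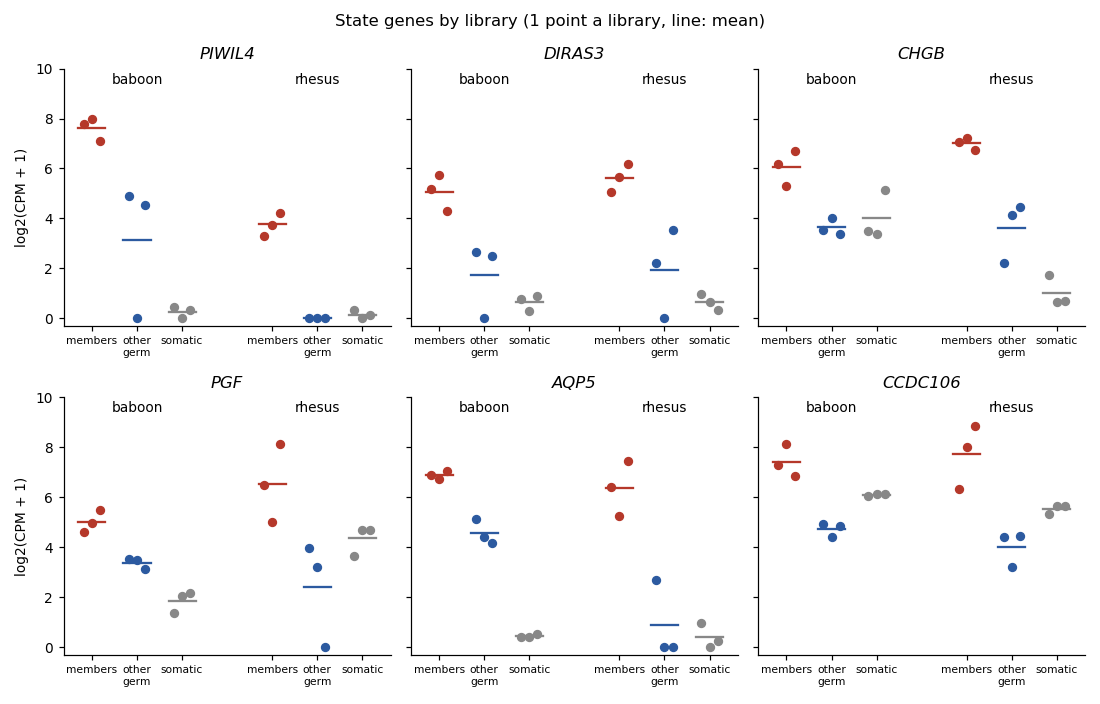
Levels of the 6 state genes as log2(CPM + 1) by library, in core members (red), other core germ cells (blue) and somatic barcodes (grey), with the baboon on the left and the rhesus monkey on the right of each panel; a point is 1 library and a line the mean of the log2 values. PIWIL4 lies above the other 2 groups in all baboon libraries and rests on at most 3 UMIs in each rhesus library, whereas CCDC106 is higher in somatic barcodes than in the other core germ cells.

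The 6 opposing genes, which also chose the members, were lower in core members than in the other core germ cells of every library. NANOS3 was at 7.86, 7.57 and 3.34 CPM in baboon core members against 226, 225 and 140 in the other core germ cells, and at 2.98, 6.22 and 35.3 against 222, 206 and 233 in the rhesus monkey. L1TD1 was at 11.8, 7.57 and 10.0 against 249, 230 and 276 in the baboon. RBM24, an RNA-binding protein, was still at 55.0, 37.9 and 33.4 in baboon core members, against 210, 169 and 231. TSTD1 was higher in somatic barcodes (63.2, 64.7 and 53.8 in the baboon) than in the core members or in the other core germ cells of 1A and 2.

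How firmly a cell fell on one side varied. A margin of 1 UMI decided for 42 of 164 baboon and 27 of 73 rhesus members. The largest margin of a core member was 26 UMIs in the baboon, as against 35 in the rhesus monkey. Among core members the median margin was 3, 9 and 5 UMIs in the baboon libraries and 2, 5 and 10.5 in the rhesus libraries. At least 3 state genes were found in 48 of 72 baboon but in 19 of 59 rhesus core members. Just outside the rule, ties counted as remaining germ cells, of which there were 59 baboon and 62 rhesus cells. In rhesus 1, 51 of 59 ties held no UMI of any of the 12 genes.

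The germ cell genes of the rule were not found alike in the 2 species. TKTL1, a transketolase-like protein, was found in 0%, 0% and 13.2% of baboon core members, but in 95.8%, 100% and 100% of rhesus core members. DDX4, the germ cell RNA helicase VASA, was found in 62.5%, 80.0% and 81.6% of baboon but in 16.7%, 42.9% and 0% of rhesus core members. SOHLH1, a transcription factor of spermatogonia, was found in 87.5%, 100% and 89.5% of the former and in 89.6%, 85.7% and 100% of the latter. Its level was higher in core members than in the other core germ cells in all 6 libraries (193, 204 and 252 against 117, 153 and 140 CPM, and 503, 156 and 406 against 276, 49.4 and 84.7). MAGEB2 was not analysed here in the rhesus monkey, so members and core members were chosen there on fewer germ cell genes than in the baboon. SOHLH1, like the other 23 genes of the rule, was left out of the tests.

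For the comparison of members with the remaining germ cells, UMIs were summed per animal and tested with edgeR's quasi-likelihood test. With no block for the animal, 0 of 12039 genes passed an adjusted p of 0.05 in the baboon (0%), where 46 had an unadjusted p under 0.05 and DESeq2 called 1. In the rhesus monkey 2 of 4898 passed (0.0408%), both lower in members: ASB11 and MCUB. For the core members alone 0 of 8307 (0%; 900 at an unadjusted p under 0.05, and 19 by DESeq2) and 2 of 4415 (0.0453%) passed. When the animal was a block, 228 baboon genes (1.89%) and 239 rhesus genes (4.88%) passed for all members. For the core members 1292 passed in the baboon (15.6% of those tested), of which 667 were higher (8.03%) and 625 lower (7.52%). The corresponding rhesus count was 309 (7.00%), of which 184 were higher (4.17%) and 125 lower (2.83%). In both animals of the species 1286 of the 1292 and 308 of the 309 differed in the same direction. The calls were made on these same animals, so this agreement is largely set by the calling and is no replication. The blocked fit rests on 1 residual degree of freedom, with the spread shared over genes, and DESeq2 with the same block called 60 and 24 genes. When members were required to have a margin of at least 2 UMIs, the blocked fit called 1238 genes in the baboon but 2 in the rhesus monkey, so the rhesus calls below are lost under that stricter rule apart from 2. The 12 genes of the 2 sums had been chosen with results of these libraries known, so the genes that follow are not independent of that choice. Without the marked doublets rhesus 2 keeps 9 core members, under the minimum of 10 cells for a sum. The blocked rhesus fit could thus not be run without these doublets, and how far the 309 rhesus calls depend on them was not tested. All values below are from the blocked fit of core members against the other core germ cells; log2 fold changes carry their standard error.

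Some genes of the piRNA pathway were higher in members. DNMT3L, the cofactor of the de novo DNA methyltransferases in germ cells, stood at 106, 129 and 86.9 CPM in core members and at 7.96, 10.2 and 4.71 in the other core germ cells (log2 fold change 3.91 ± 0.40, adjusted p = 2.58e-19). It lies on chromosome 4 of Panubis1.0, from 179604476 to 179618385, and was not analysed here in the rhesus monkey. SPOCD1 (Panubis1.0, chromosome 1, 30049097 to 30077448) stood at 70.8, 106 and 66.9 against 37.2, 10.2 and 11.0 in the baboon (2.01 ± 0.34, adjusted p = 3.73e-07) and at 101, 80.9 and 88.3 against 40.4, 32.9 and 10.6 in the rhesus monkey (1.55 ± 0.48, adjusted p = 0.0251). The libraries of the groups did not overlap for either gene, given here as a description. C20H19orf84, the baboon gene listed as the counterpart of C19orf84 of humans, stood at 417, 575 and 309 against 87.6, 56.2 and 47.1 (2.69 ± 0.21, adjusted p = 1.48e-33). The rhesus gene listed as C19orf84, looked up after values had been seen, was higher as well (2.25 ± 0.34, adjusted p = 5.02e-08). Its human counterpart encodes a partner of SPOCD1.

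Of the piRNA pathway list, 20 of 27 genes passed the filter on low counts in the baboon, of which 4 were higher (DNMT3L, SPOCD1, TDRD3 and FKBP6) and 2 lower (PRMT5 and ASZ1). Over all tested baboon genes 8.03% were higher and 7.52% lower. The median log2 fold change of the list was 0.22, against -0.0014 over all genes tested. FKBP6, a cochaperone of piRNA production, stood at 126, 114 and 98.6 against 53.1, 92.0 and 55.0 (0.90 ± 0.25), whereas PRMT5, an arginine methyltransferase that modifies PIWI proteins, stood at 11.8, 7.57 and 11.7 against 34.5, 20.4 and 33.0 (-1.43 ± 0.51). Of the 23 genes of the list that the rhesus annotation holds, 9 were tested and SPOCD1 was the only call. In the rhesus monkey 7.00% of all tested genes were called. MORC1, a chromatin protein that represses transposons in male germ cells, was higher in the baboon (149, 220 and 125 against 66.3, 40.9 and 48.7, log2 fold change 1.51 ± 0.24, adjusted p = 5.84e-08). Of the DNA methylation list DNMT3L was the 1 of 8 tested genes called in the baboon, where 15.6% of all tested genes were called, and MBD3, a subunit of the NuRD complex, the 1 of 3 in the rhesus monkey, where it was lower (244, 305 and 141 against 918, 543 and 530, -1.43 ± 0.26).

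Genes known from meiosis were among those higher in both species. SYCP1, a component of the synaptonemal complex, stood at 220, 212 and 181 CPM against 61.0, 46.0 and 66.0 in the baboon (1.73 ± 0.22, adjusted p = 5.79e-12) and at 98.2, 106 and 106 against 45.9, 41.2 and 10.6 in the rhesus monkey (1.46 ± 0.46, adjusted p = 0.0324). BRDT, a testis bromodomain protein, stood at 142, 144 and 66.9 against 58.4, 56.2 and 31.4 (1.24 ± 0.27) and at 119, 87.1 and 159 against 45.9, 24.7 and 0 (1.86 ± 0.47). TEX12, another component of the synaptonemal complex, was higher in the baboon (271, 235 and 254 against 165, 143 and 149) and is listed at 0 in the rhesus monkey. These were all the calls of the meiosis list, 3 of 10 tested baboon genes and 2 of 3 rhesus genes, with none lower (8.03% and 4.17% of all tested genes were higher). Not all genes known from meiosis had higher levels in members. SYCP3, also of the synaptonemal complex, was at 43.3, 37.9 and 50.1 against 98.2, 66.4 and 69.1 in the baboon. In the rhesus monkey SYCP3 was at 14.9, 0 and 0 against 23.9, 32.9 and 0, on few UMIs. DND1, which binds mRNAs of germ cells, was higher in both species, at 185, 227 and 191 against 58.4, 51.1 and 91.1 (1.44 ± 0.22) and at 170, 579 and 300 against 112, 198 and 233 (1.02 ± 0.30). The rhesus libraries of its groups overlapped, although each library taken alone was higher in its members.

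**Figure D3:**
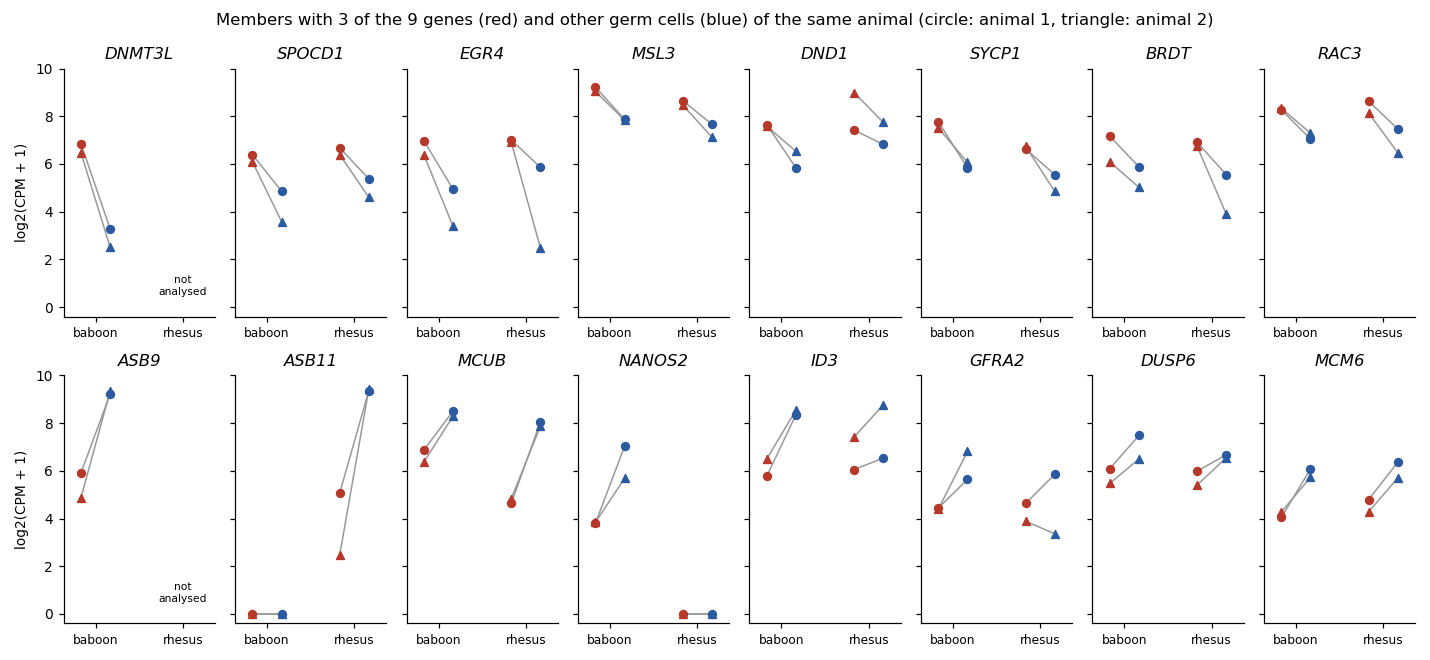
Levels of 16 genes as log2(CPM + 1) in core members (red) and other core germ cells (blue), with lines joining the 2 groups of 1 animal (circle: animal 1; triangle: animal 2). DNMT3L to RAC3 were called higher in members in each species with a value above 0; ASB9, NANOS2, ID3, GFRA2, DUSP6 and MCM6 were called lower in the baboon, ASB11 in the rhesus monkey and MCUB in both.

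The list of undifferentiated spermatogonia held calls in both directions in the baboon, with 8 higher and 5 lower of 26 tested (median log2 fold change 0.064), where 8.03% of all tested genes were higher and 7.52% lower. Higher were HES4 and HES5, EGR4, TSPAN33, PHGDH, MORC1, MSL3 and DUSP5, and lower were NANOS2, GFRA1, DUSP6, ZBTB16 and ETV5. EGR4, a zinc finger transcription factor, stood at 145, 83.3 and 81.9 against 31.8, 25.5 and 9.42 in the baboon (2.46 ± 0.32, adjusted p = 7.9e-12) and at 128, 93.3 and 194 against 56.9, 0 and 10.6 in the rhesus monkey (1.93 ± 0.47, adjusted p = 0.00242). MSL3, a chromodomain protein of the MSL complex, stood at 578, 628 and 525 against 263, 179 and 228 (1.31 ± 0.18) and at 402, 311 and 477 against 202, 115 and 169 (1.22 ± 0.29). TSPAN33, a tetraspanin, was at 27.5, 37.9 and 104 against 5.31, 0 and 31.4 in the baboon (2.02 ± 0.36), where the members of 1A lay under the other germ cells of library 2. Among 16 tested rhesus genes of the list 3 were called, all higher: EGR4, MSL3 and ID4. Of all tested rhesus genes 4.17% were higher.

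NANOS2, an RNA-binding protein of undifferentiated spermatogonia, was at 11.8, 15.1 and 13.4 in baboon core members against 114, 158 and 50.3 in the other core germ cells (-2.57 ± 0.37, adjusted p = 9.21e-10). UTF1, a chromatin-associated transcriptional coactivator, showed no call in the baboon, at 661, 697 and 483 against 703, 756 and 576 (-0.14 ± 0.19, adjusted p = 0.702). ID4, an inhibitor of DNA binding that marks mouse stem cells, had no call there (637, 447 and 241 against 480, 577 and 298, adjusted p = 0.951) but was higher in the rhesus monkey, where the libraries overlapped (640, 436 and 318 against 287, 272 and 392, 0.86 ± 0.26, adjusted p = 0.0233). KIT, the receptor of differentiating spermatogonia, was at 3.93, 0 and 3.34 in baboon core members against 21.2, 5.11 and 11.0 in the other core germ cells. In the rhesus monkey KIT was at 11.9, 37.3 and 0 against 5.51, 8.23 and 10.6. These levels rest on few UMIs. No difference was called for KIT in either species, and the part of depth in this was not tested.

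Of the genes of the GDNF and FGF signals, which Sertoli cells send to undifferentiated spermatogonia, 5 of 15 tested were lower in the baboon members and none higher, with a median of -0.53, whereas 7.52% of all tested genes were lower. The other 10 did not pass. GFRA1 and GFRA2, co-receptors of the GDNF family, were at 15.7, 0 and 3.34 against 18.6, 51.1 and 42.4 (-2.48 ± 0.57) and at 27.5, 7.57 and 20.1 against 53.1, 40.9 and 112 (-1.97 ± 0.34). SPRY4 and DUSP6, feedback inhibitors of ERK signalling, were at 0, 15.1 and 3.34 against 66.3, 15.3 and 42.4 (-3.35 ± 0.57) and at 78.6, 45.4 and 43.5 against 165, 204 and 89.5 (-1.20 ± 0.25). ETV5, a target of GDNF and FGF, was the last of the 5 (-0.85 ± 0.31). Among rhesus genes 0 of 5 tested genes of this list were called by edgeR, where 7.00% of all tested genes were called and 2.83% were lower. DUSP6 there was at -0.79 ± 0.45 (adjusted p = 0.32).

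Targets of BMP and NOTCH signals also divided. ID3, a BMP target, stood at 59.0, 45.4 and 90.3 against 284, 409 and 374 in the baboon (-2.19 ± 0.21, adjusted p = 9.68e-22) and had a log2 fold change of -0.89 ± 0.34 in the rhesus monkey (adjusted p = 0.0911). ID1 (149, 75.7 and 114 against 273, 286 and 226), HES1 (39.3, 114 and 157 against 186, 225 and 256) and HEY1 (43.3, 15.1 and 13.4 against 98.2, 107 and 37.7) were lower in the baboon too. HES4, HES5 and HEY2 were higher there, HES4 at 66.8, 30.3 and 18.4 against 5.31, 0 and 4.71 (3.00 ± 0.67). This made 3 higher and 4 lower of 12 tested genes of the NOTCH, ID and HES list, where 8.03% of all tested genes were higher and 7.52% lower. For the rhesus monkey ID4 was the only call among 8 (7.00% of all tested genes were called), and HES5 is listed at 0.

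Some cell cycle genes were lower in the baboon members, and most did not pass (of all tested genes 7.52% were lower). Of the S phase list 5 of 13 tested were lower and none higher (median -0.49): CDT1, MCM6, TYMS, MCM7 and PCNA, and of the G2 and M phase list 5 of 17 were lower and none higher (median -0.44): UBE2C, CCNA2, CCNB1, CDC20 and TOP2A. PCNA, the sliding clamp of DNA replication, was at 169, 121 and 102 CPM against 231, 153 and 209 (-0.69 ± 0.20), where the values of the libraries overlapped. MCM6, a subunit of the replicative helicase, was at 19.7, 7.57 and 18.4 against 71.6, 56.2 and 51.8 (-1.69 ± 0.37). UBE2C, a ubiquitin-conjugating enzyme of mitotic exit, had 1 UMI in the members and 28 in the other core germ cells, a ratio of 0.0439 (exact interval 0.00107 to 0.265, counting error only). Of the same lists in the rhesus monkey none of 7 and of 10 tested genes was called by edgeR, where 2.83% of all tested genes were lower, with medians of -0.13 and -0.38 and MCM6 at -1.47 ± 0.55 (adjusted p = 0.0838). Whether the species differ in this was not tested.

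A list of 15 genes was taken from those that the text of the study names for primate spermatogonial stem cells. It holds only part of the genes that the study put forward, which were chosen on these samples, and is not independent evidence of its direction. In the baboon 12 of 14 tested were higher and in the rhesus monkey 11 of 13, with none lower, and medians of 1.15 and 1.20. Over all tested genes 8.03% and 4.17% were higher. RAC3, a small GTPase, was at 267, 386 and 323 against 141, 112 and 155 (1.18 ± 0.19) and at 396, 255 and 353 against 176, 98.8 and 74.2 (1.43 ± 0.31). PAK4, a kinase that acts downstream of such GTPases, was at 86.5, 167 and 140 against 47.8, 46.0 and 55.0 (1.36 ± 0.25) and at 149, 218 and 247 against 66.1, 16.5 and 31.8 (1.94 ± 0.39). SH2B2, an adaptor of receptor tyrosine kinases, was at 193, 136 and 117 against 69.0, 35.8 and 22.0 (1.94 ± 0.26) and at 280, 112 and 194 against 93.7, 57.6 and 42.4 (1.58 ± 0.36). PRR5, a subunit of mTOR complex 2, had log2 fold changes of 1.47 ± 0.22 and 1.62 ± 0.36.

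**Figure D4:**
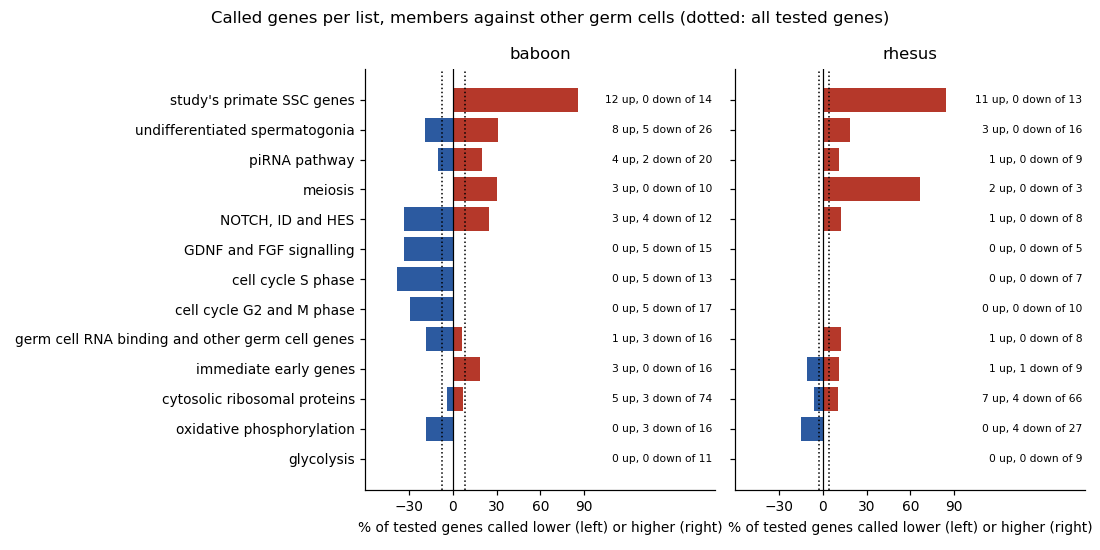
Share of the tested genes of each list called lower (blue, left) or higher (red, right) in core members than in other core germ cells at an adjusted p of 0.05, with the animal as a block; counts stand at the right of each bar and dotted lines give the share over all genes tested. The stem cell list reaches 12 of 14 and 11 of 13 higher, but its genes were chosen by the study on these samples; the GDNF and FGF and cell cycle lists have only lower calls in the baboon and no calls in the rhesus monkey, where 5, 7 and 10 genes were tested, and the difference between the species was not tested.

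Ribosomal protein genes held calls in both directions, 5 higher and 3 lower of 74 tested in the baboon and 7 higher and 4 lower of 66 in the rhesus monkey, where 15.6% and 7.00% of all tested genes were called in either direction. One pair of paralogs moved in opposite directions in both species. RPL22 was at 779, 825 and 1177 against 1316, 1619 and 1564 in the baboon (-0.57 ± 0.22, adjusted p = 0.0494) and at 854, 566 and 212 against 1549, 1416 and 1409 in the rhesus monkey (-1.11 ± 0.23, adjusted p = 0.000194). RPL22L1, its paralog, was at 401, 485 and 451 against 138, 174 and 182 (1.45 ± 0.18, adjusted p = 1.81e-12) and at 408, 1973 and 1783 against 301, 1375 and 508 (0.80 ± 0.23, adjusted p = 0.0165). RPL22L1 belongs to the stem cell list above. How reads that paralogs share were counted is not given in the sources used here. Nuclear genes of oxidative phosphorylation held only lower calls, 3 of 16 baboon and 4 of 27 rhesus genes (7.52% and 2.83% of all tested genes were lower), and none of 11 and 9 tested glycolysis genes was called by edgeR.

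For all members of the rule, where 1.89% of all tested baboon genes and 4.88% of all tested rhesus genes were called with the block, most of these lists held fewer calls in the baboon. The stem cell list had 2 higher of 15, the piRNA pathway list 2 higher of 24 and the list of undifferentiated spermatogonia 5 higher and 4 lower of 28. Of the GDNF and FGF list 4 of 17 were lower, of the NOTCH, ID and HES list 1 was higher and 2 lower of 13, and of the S phase and the G2 and M phase lists 1 of 15 and 2 of 18 were lower. Neither the 75 tested ribosomal protein genes nor the 17 of oxidative phosphorylation held a call by edgeR, and the meiosis list had 3 higher of 10. In the rhesus monkey the counts of calls in these lists equalled those for the core members.

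Several large differences were of genes with few UMIs. PAGE4, a cancer-testis antigen, had 23 UMIs in the baboon core members and 0 in the other core germ cells, at least 9.42-fold higher against a floor of 3 UMIs over the group. CNN1, a calponin, had 20 against 0 (at least 8.19-fold) and was higher in the rhesus monkey too (62.5, 37.3 and 106 against 27.6, 0 and 0, 1.87 ± 0.57). CCK, a neuropeptide, had 29 against 1 UMI, and CBLN2 and MUC20 27 and 23 against 1. Large rhesus values in this direction were those of ATXN7L2 (32 UMIs against 3, a ratio of 14.7, exact interval 4.59 to 74.8), CACNA1B, CRYAB, NUTM1, MYH2, RUNX1, TMEM45A and ZNF296. TMEM45A, a transmembrane protein, stood at 185, 143 and 388 against 36.7, 24.7 and 10.6 there (2.75 ± 0.42) and at 78.6, 53.0 and 41.8 against 15.9, 0 and 9.42 in the baboon (2.47 ± 0.43). CRYAB, a small heat shock protein, was higher in both as well (2.92 ± 0.63 in the rhesus monkey, 2.06 ± 0.48 in the baboon).

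The gene with the smallest p among those lower was ASB9 in the baboon and ASB11 in the rhesus monkey, both encoding substrate receptors of ubiquitin ligases with ankyrin repeats. ASB9 was at 39.3, 98.4 and 28.4 CPM in baboon core members, at 547, 679 and 645 in the other core germ cells and at 15.8, 13.9 and 11.7 in somatic barcodes (members against other germ cells -3.86 ± 0.24, adjusted p = 9.54e-55). ASB11 was at 32.7, 6.22 and 0 in rhesus core members, at 658, 527 and 900 in the other core germ cells and at 13.3, 5.36 and 6.50 in somatic barcodes (-4.91 ± 0.38, adjusted p = 2.09e-33). Members lay closer to somatic barcodes than to their sister germ cells. The genes are neighbours on the X chromosome in both builds (ASB9 at 130318459 to 130347628 and ASB11 at 130273921 to 130306254 in Panubis1.0; 14918772 to 14946649 and 14965142 to 14996845 in Mmul_10). ASB11 is listed at 0 UMIs in the baboon germ cells and somatic barcodes, and ASB9 was not analysed here in the rhesus monkey, so whether the same transcript was counted under different names was not tested.

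Other genes lower in members included MCUB, a subunit that dampens the mitochondrial calcium uniporter, at 118, 114 and 81.9 against 358, 373 and 313 in the baboon (-1.75 ± 0.20) and at 23.8, 37.3 and 0 against 263, 231 and 233 in the rhesus monkey (-3.20 ± 0.43). It passed in the rhesus monkey with and without the block. SDC1, the proteoglycan syndecan 1, was lower in the baboon (15.7, 7.57 and 3.34 against 74.3, 128 and 70.7, -3.39 ± 0.43). Among the rhesus genes SDF2L1, a protein of the endoplasmic reticulum, had 2 UMIs against 52 and HJURP, a chaperone of centromeric histones, 3 against 47, ratios of 0.0528 (exact interval 0.00623 to 0.201) and 0.0877 (0.0175 to 0.272). APOE, apolipoprotein E, was lower in both species (429, 507 and 262 against 1701, 2166 and 1118, and 399, 411 and 300 against 955, 1507 and 1430).

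Of the markers of other cell types, AMH was higher in baboon core members than in the other core germ cells (511, 810 and 1618 against 172, 286 and 1024, log2 fold change 1.08 ± 0.21) and SOX9 lower (-0.90 ± 0.25). A few cells carried these AMH levels: the medians over cells were 101, 181 and 67.1 CPM in core members against 115, 92.4 and 79.2 in the other core germ cells, lower in members in 1A and 2, and single core members reached 3773, 6565 and 10858. The Sertoli list as a whole summed to 767, 1045 and 1945 CPM in baboon core members and to 411, 582 and 1348 in the other core germ cells, with AMH the most abundant and DHH at 0 in the latter in 1A and 1B. In the rhesus monkey the sums were 610, 473 and 336 against 1084, 329 and 413, and 0 of 4 tested Sertoli genes was called. The part of these levels in the results above was not tested. Immediate early genes, which rise during tissue digestion, held 3 higher calls of 16 in the baboon (EGR4, JUNB and JUN) and 1 higher (EGR4) and 1 lower (FOS) of 9 in the rhesus monkey, where of all tested genes 8.03% (baboon) and 4.17% (rhesus monkey) were higher and 7.52% and 2.83% lower.

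Of 3654 genes tested in both species, 289 were higher in the baboon core members (7.91%) and 137 in the rhesus core members (3.75%). Higher in both were 87, which is 30.1% of the former and 63.5% of the latter. Lower in both were 52 genes, 15.2% of the 341 lower in the baboon and 57.8% of the 90 lower in the rhesus monkey. Higher in the baboon and lower in the rhesus monkey were IFI27L2, TIMP1 and YJEFN3, and none went the other way. TIMP1 was lower in members of rhesus 1 (122 against 415 CPM) but not of rhesus 2 (110 against 102), so its rhesus call rests on 1 animal. Both species were split by the same 12 genes, so the overlap is in part set by the rule. The 87 held EGR4, SPOCD1, SYCP1, BRDT, DND1, MSL3, RAC3, PAK4, TMEM45A, CRYAB and RPL22L1, and also SLC1A6, a glutamate transporter, which stood at 66.8, 45.4 and 31.8 against 0, 0 and 6.28 in the baboon (3.67 ± 0.61) and at 50.6, 31.1 and 124 against 16.5, 8.23 and 10.6 in the rhesus monkey (1.95 ± 0.59).

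**Figure D5:**
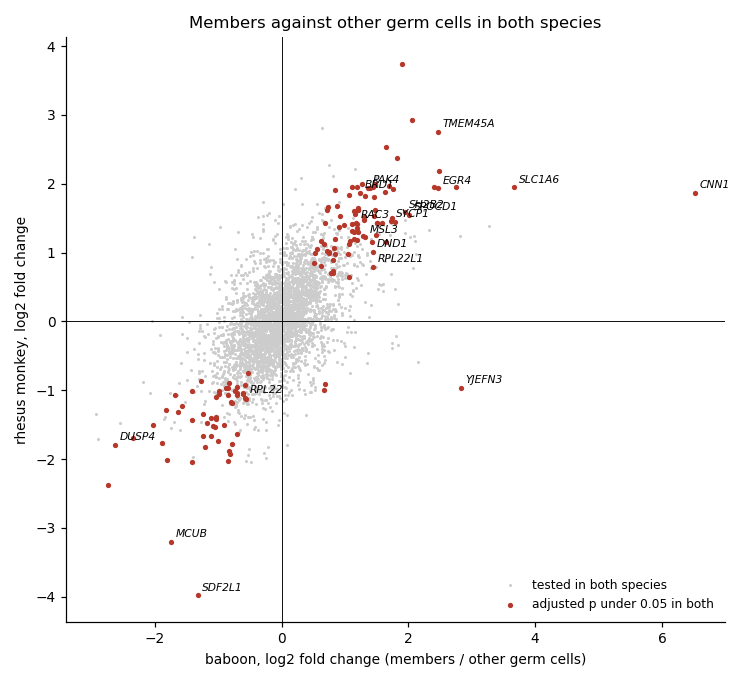
Log2 fold changes of core members against other core germ cells for the 3654 genes tested in both species (grey), baboon on the horizontal and rhesus monkey on the vertical axis; red points passed an adjusted p of 0.05 in both, and 18 genes are named where tested. Of the red points 87 are higher and 52 lower in both species, and 3, YJEFN3 among them, are higher in the baboon and lower in the rhesus monkey.

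Against somatic barcodes, with no block, 705 of 16593 genes passed for all members in the baboon (4.25%) and 3191 of 12723 in the rhesus monkey (25.1%). For core members, set against all barcodes with a UMI of fewer than 3 of the 9 genes, 4936 of 16486 passed in the baboon (29.9%), with 2474 higher (15.0%) and 2462 lower (14.9%), and 3266 of 12726 in the rhesus monkey (25.7%), with 1449 higher (11.4%) and 1817 lower (14.3%). Of the piRNA pathway list 21 were higher and 1 lower of 25 tested in the baboon, and 12 higher and none lower of 14 in the rhesus monkey. All levels given for somatic barcodes are those of barcodes with fewer than 3 of the 12 genes. SPOCD1 stood at 0.276, 0.240 and 0.326 CPM in somatic barcodes of the baboon and at 1.41, 0.240 and 0 in those of the rhesus monkey, against the values of core members above (log2 fold changes 7.40 ± 0.47 and 5.85 ± 0.90). GTSF1, a PIWI-interacting zinc finger protein, was at 62.9, 60.6 and 75.2 in core members against 0.414, 0.0799 and 0.244 in the baboon, and at 128, 205 and 88.3 against 5.92, 0.0800 and 0.781 in the rhesus monkey.

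The meiosis list had 10 higher and 1 lower of 13 tested against somatic barcodes in the baboon and 5 higher and none lower of 8 in the rhesus monkey. Of all tested genes 15.0% (baboon) and 11.4% (rhesus monkey) were higher than in somatic barcodes, and 14.9% and 14.3% lower. Of the G2 and M phase genes, none of which was called higher than in the other germ cells, 12 of 19 baboon and 11 of 18 rhesus genes were higher than in somatic barcodes and none lower, with TOP2A at 39.3, 7.57 and 40.1 against 2.57, 3.84 and 7.11 in the baboon. In the same direction were ID4 (3.98 ± 0.46 and 3.37 ± 0.42) and MSL3 (3.99 ± 0.36 and 3.09 ± 0.40).

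Of the Sertoli list 7 of 7 baboon and 5 of 8 rhesus genes were lower in core members than in somatic barcodes, and of the stroma list 5 of 7 and 5 of 6, with none higher in either. Of all tested genes 14.9% (baboon) and 14.3% (rhesus monkey) were lower. AMH was at 511, 810 and 1618 CPM against 6156, 6156 and 6472 in the baboon, and at 158, 162 and 53.0 against 3195, 2227 and 2383 in the rhesus monkey. Of the immediate early genes 8 of 19 baboon and 11 of 15 rhesus genes were lower in members (14.9% and 14.3% of all tested genes). EGR4 was the only one higher in each. JUN, a subunit of the AP-1 transcription factor, was at 235, 93.3 and 106 in rhesus core members against 3557, 3886 and 3874 in somatic barcodes (-4.99 ± 0.57, adjusted p = 0.000212).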

How the data were processed

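The 6 libraries were deposited by the authors as unfiltered UMI counts per gene and barcode. The submitters' processing notes name Cell Ranger 3.1.0 and Seurat 3.2.3 and the builds Panubis1.0 (baboon) and Mmul_10 (rhesus monkey). The members and gene lists were chosen with earlier results of these data known. Barcodes of at least 1000 UMIs were kept and marked doublets were not removed. UMIs were summed per animal and cell group (at least 10 cells) and tested in each species alone with edgeR 4.0.16 in R 4.3.3 (quasi-likelihood test, TMM, default filter on low counts, Benjamini-Hochberg adjustment, threshold 0.05). The 24 genes of the rule were left out. The main fit had no block, and the animal as a block was the alternative. Both groups of a comparison come from the same animals, and the deviations of core members and other core germ cells correlated (r = 0.596 over 8307 baboon genes and 0.378 over 4415 rhesus genes). Because the unblocked fit of core members called 0 and 2 genes, the values of named genes are from the blocked fit, a choice made after those counts were seen.

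Genes were named by a fixed rule: from each of 36 gene lists up to 5 called genes per direction, and the 8 largest differences per direction among called genes with at least 20 UMIs that moved alike in both animals. The same rule was then applied to the blocked fit. Other genes were chosen after their values were seen. Some genes that the rule names are not reported here. Levels are CPM, UMIs per 1000000 UMIs of a group in a library, and were not tested between genes or species. DESeq2 1.42.0 was an alternative. The steps were tested on simulated data. For the fits, changed genes were simulated with the same change in both animals. Such data cannot show how often the blocked fit makes false calls here. No strand or multi-mapping setting is given in the sources used here, so genes that overlap or share reads are uncertain. Python 3.11.15, numpy 2.4.6, scipy 1.17.1 and pandas 2.3.3 were used.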

Additional observations from a re-analysis of the deposited data

Results flagged for a closer look

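Flagged here are 4 genes compared between core members and other core germ cells in the blocked fit. Their difference had one sign in both baboons and the other sign in both rhesus monkeys. They are not all the genes of this pattern. By CPM, INHA was also higher in members of both baboons and lower in those of both rhesus monkeys. The difference between the species was not tested. FOS, a subunit of AP-1, had a log2 fold change of 0.066 (baboon, adjusted p = 0.885, with almost equal levels) and -0.96 (rhesus monkey, adjusted p = 0.0373). JUN, its partner in AP-1, had 0.68 (adjusted p = 0.00613) and -0.56 (adjusted p = 0.303), so only the baboon value passed. IFI27L2, an interferon-induced protein, had 0.69 and -0.90 and YJEFN3 had 2.82 and -0.96, and both genes passed in each species.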

How the results depend on the processing

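Of the baboon members (164) 419 were found with at least 2 germ cell genes, 90 with at least 4, 72 with 3 of the 9 genes, 8 with 1000 UMIs drawn per barcode and between 39 and 152 with 1 library left out. Of the rhesus members (73) 46 had a margin of 2 UMIs, 14 were found with 1000 UMIs drawn, and between 11 and 69 with 1 library left out.

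With the animal as a block, members differed from the remaining germ cells in 228 genes (baboon) and 239 (rhesus monkey), against 0 and 2 without it. DESeq2 called 1 and 4, and no filter on low counts 2 and 34. The rhesus count was 1 with a margin of 2 UMIs and without ties, and 0 with 3 groups in 1 fit and with the rule without CHGB and PGF. Sums per library, leaving out library 2A and leaving out marked doublets left 1 rhesus sum of members. For this comparison their counts are not given. For core members the counts of the blocked fit, 1292 and 309, became 0 and 2 without the block and 60 and 24 with DESeq2. In the baboon they lay between 697 and 880 with 1 library left out (697 without 1A). The rhesus count was 139 with no filter and 2 with a margin of 2 UMIs.

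Against somatic barcodes the baboon count for all members, 705, was 1655 with DESeq2, 1726 with no filter, 1208 with sums per library, 0 with 3 groups in 1 fit, 1203 with at least 4 germ cell genes and 4936 for core members, which became 8325 with no filter. The rhesus counts, 3191 for all and 3266 for core members, were 1749 and 1842 without marked doublets, lay between 0 and 1346 and between 0 and 1581 with library 2B or 2A left out, and the former was 1 with 1000 UMIs drawn. The block gave 982 and 3791 for all and 7209 and 3859 for core members. The causes were not tested, except that leaving out libraries or doublets, sums per library and the drawn UMIs left 1 rhesus sum of members, whose spread is then assumed to be that of the somatic sums.

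DESeq2 moved the median log2 fold change of tested genes in the blocked comparison of core members from -0.0014 to 0.26 in the baboon and from 0.023 to 0.17 in the rhesus monkey. No named gene reversed under any alternative run. DESeq2 with the block kept 13 of 88 named baboon and 7 of 45 named rhesus calls, the margin of 2 UMIs 77 of 85 and 2 of 42, and the fit of all members 33 with 50 lost (baboon) and 43 with 1 lost (rhesus monkey). Leaving out baboon library 2 or rhesus library 1, any rhesus library for core germ cells, and the drawn UMIs in the baboon left too few cells for a test. No difference was called for KIT in either species, on few UMIs in core members, and PIWIL4 rests on few UMIs in every rhesus library. The part of depth in these values was not tested.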

Other observations

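Lists not described above also held calls between core members and other core germ cells in the blocked edgeR fit, where 15.6% of all tested baboon and 7.00% of all tested rhesus genes were called. Of 20 tested small GTPases of the RAS family in the baboon, RIT1 and RAC3 were higher and RHEB and RAC1 lower, and of 10 in the rhesus monkey RAC3 was higher. Of the actin and adhesion genes PFN1, profilin, was lower in both species, with ITGB1 higher and EZR and RDX lower in the baboon (17 and 12 tested). PMAIP1, the pro-apoptotic protein NOXA, was the only call of 6 tested apoptosis genes in each species and was higher, but it also stands on the stem cell list taken from the study.

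CDKN1C, a cell cycle inhibitor and imprinted gene, was higher in the baboon, the only call of 9 quiescence and of 11 imprinted genes. AQP11 was the 1 aquaporin tested there and was higher, while 0 of 3 tested genes of the VEGF family and 0 of 6 granin and secretory granule genes were called by edgeR. DPPA4, a gene of pluripotent cells, was the only call of 10 genes of primordial germ cells and was lower. Of 7 genes of differentiating spermatogonia UPP1 was higher and DMRT1 and CCND2 lower in the baboon. VWF, the 1 tested endothelial marker, was lower in the baboon members.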
